A study of Mus musculus with 34 samples.

Results

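The genes examined here are 10 members of the YAP/TEAD pathway, taken as a list that was drawn up with earlier results of these data known. They are the coactivators *Yap1* and *Wwtr1* (which encodes TAZ), the DNA-binding factors *Tead1*, *Tead2*, *Tead3* and *Tead4*, and the target genes *Ctgf*, *Cyr61*, *Ankrd1* and *Amotl2*. All 10 were present among the 23509 genes of each count table, and all 10 were among the 15644 genes expressed highly enough to be tested. *Ctgf* and *Cyr61* are the older symbols of *Ccn2* and *Ccn1*.

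YAP and TAZ are coactivators without DNA-binding domains of their own. When the Hippo kinase cascade is active, MST and LATS kinases phosphorylate them and they are held in the cytoplasm or degraded. When it is inactive they enter the nucleus, bind a TEAD factor and switch on genes such as *Ctgf*, *Cyr61* and *Ankrd1*, which are widely used as transcriptional readouts of the pathway. In the kidney the pathway responds to cell stretch, cell density and cell polarity, and it has been studied in tubular cysts and in fibrosis. Because YAP and TAZ are regulated largely by phosphorylation and location, their mRNA levels do not measure their activity.

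Kidney mRNA was sequenced from 34 C57BL6 mice at postnatal day 28. The cystic animals were *Pkd2*-KO mice (Pkhd1/cre;Pkd2 F/F, a genotype that the labels also spell Pdk2KO), in which Cre driven by the *Pkhd1* promoter deletes *Pkd2* in tubule cells that use this promoter, chiefly in the collecting duct, and not in the whole kidney. They were dosed subcutaneously on days 10, 11, 12 and 19 with 20 mg per kg of RGLS4326, a short chemically modified oligonucleotide that binds the seed of miR-17 (n = 11), or with PBS (n = 11). Untreated non-transgenic mice (UNT, n = 12), which carried no transgene and received no injection, served as the controls. The numbers of mice are those of the labels, and the study describes a smaller number of PBS mice for its sequencing. A group given a control oligonucleotide was not analysed here. Genotype and injection are therefore joined in every comparison with UNT and cannot be told apart.

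Each library held between 17603122 and 54981992 reads in genes, with medians of 43050262 in UNT, 33573702 in PBS and 25551168 in RGLS4326 mice. Levels are given below as CPM, the count of a gene relative to its library after TMM scaling to a common size, and a gene was called when its adjusted p in edgeR's quasi-likelihood test was under 0.05. *Pkd2*, the deleted gene, ranged from 219.6 to 338 CPM in UNT, from 98.03 to 215 CPM in PBS and from 170.03 to 237 CPM in RGLS4326 kidneys, so the PBS and UNT ranges did not overlap. PBS replicate 9 stood apart from its group: its median correlation with the other PBS libraries was 0.972, against 0.984 for the next lowest. Genes of the adrenal cortex summed to 1152 CPM in PBS replicate 11 and 655.9 CPM in PBS replicate 2, and to at most 37.9 CPM in the other 32 libraries. The libraries carried 3 separate runs of sample numbers, called library series here, each of which held 3 or 4 mice of every group. What differed between the series beyond the numbering was not stated in the sources used here.

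Because the treatment is directed at miR-17, the 3′ untranslated regions of the 10 genes were searched for matches to its seed. The mature mouse miR-17-5p of RefSeq (GRCm38.p6, chr14:115043684-115043706, plus strand) is printed with seed bases 2 to 8 in capitals, and the sites with the bases of the match in capitals. The last capital A of each site faces base 1 of the miRNA, outside the seed, and is counted as part of the standard site types without pairing.
mmu-miR-17-5p: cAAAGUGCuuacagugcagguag
*Yap1* site: ctttcaccatCACTTTAactgaacaca
*Wwtr1* site: gggtcagggtGCACTTTActgggaaggg
*Tead1* site: agcctcagtgGCACTTTAcacatatatt

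Of the 10 genes, *Yap1*, *Wwtr1* and *Tead1* held 1 match each, and the other 7 held 0. The *Yap1* match (chr9:7934170-7934176, minus strand, GENCODE gene models on GRCm38) covers 7 bases, CACTTTA, of which the last lies outside the seed. The matches in *Wwtr1* (chr3:57457188-57457195, minus strand) and *Tead1* (chr7:112899969-112899976, plus strand) cover the full 8 bases GCACTTTA. The search used the transcript with the longest 3′ untranslated region and counted the 8-base form and the 7-base forms GCACTTT and CACTTTA. Among 14200 tested genes with such a region, 21.94% held at least 1 match and 4.26% an 8-base match. The 3′ untranslated region was 8147 bases long in *Tead1*, 3277 in *Wwtr1* and 2498 in *Yap1*, above the median of 1317 bases for all those genes, and a longer region has more places for a match. A match is a run of letters and not a measured binding site.

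TEAD factors bind the motif GGAATG, or CATTCC on the opposite strand, which was sought in RefSeq windows from 250 bases before to 50 bases after each transcription start (GRCm38.p6). Windows were found for 7 of the 10 genes. At least 1 match was present in *Yap1*, *Wwtr1*, *Tead3*, *Cyr61*, *Ankrd1* and *Amotl2*, and none in *Tead2*. These 7 genes had 10 windows, of which 8 held a match, and the 2 overlapping windows of *Wwtr1* held the same one. Over all 32851 windows the share with a match was 14.66%, and 1.361% had 2 or more. The stretches around the matches of the target genes are shown, on the strand of the gene and with the motif in capitals, because these genes are the usual readouts of the pathway.
*Cyr61*: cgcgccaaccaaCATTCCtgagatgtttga
*Ankrd1*, distal: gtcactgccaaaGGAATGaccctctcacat
*Ankrd1*, proximal: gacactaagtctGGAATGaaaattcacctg
*Amotl2*: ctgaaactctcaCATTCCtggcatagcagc

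In the stretch of *Cyr61* (chr3:145650071-145650100, minus strand) the motif began 103 bases before the start site, and in that of *Amotl2* (chr9:102717727-102717756, plus strand) 65 bases before it. In the *Ankrd1* stretches (chr19:36120037-36120066 and chr19:36119950-36119979, minus strand) the motifs began 210 and 123 bases before its start. All these distances are from the RefSeq start sites. The GENCODE models of *Ankrd1* and *Amotl2*, whose coordinates are given below, begin farther upstream and take in the stretches of these genes. *Ankrd1* and the second of the 3 *Tead3* start sites, which had 3 matches, were the members with more than 1 match in a window, and 0.1309% of all windows held 3 or more. No binding was measured here.

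The 4 target genes were higher in the cystic kidneys of PBS-treated mice than in UNT kidneys, while the coactivators that act upstream of them differed little. *Ankrd1* was 44.2-fold higher, *Cyr61* 6.50-fold, *Ctgf* 4.12-fold and *Amotl2* 1.77-fold. All 4 TEAD factors were also higher, *Tead2* most at 2.87-fold. In all, 9 of the 10 genes were called higher in PBS and 0 lower, beside 43.1% of all 15644 genes called higher, 39% called lower and 82.1% called in either direction. Most genes were called, so the count by itself does not set these 10 apart. The median log2 fold change was 0.73 over the 10 genes and 0.04 over all genes tested, which went both ways, and the median size without regard to sign was 0.73 and 0.60.

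**Figure D1:**
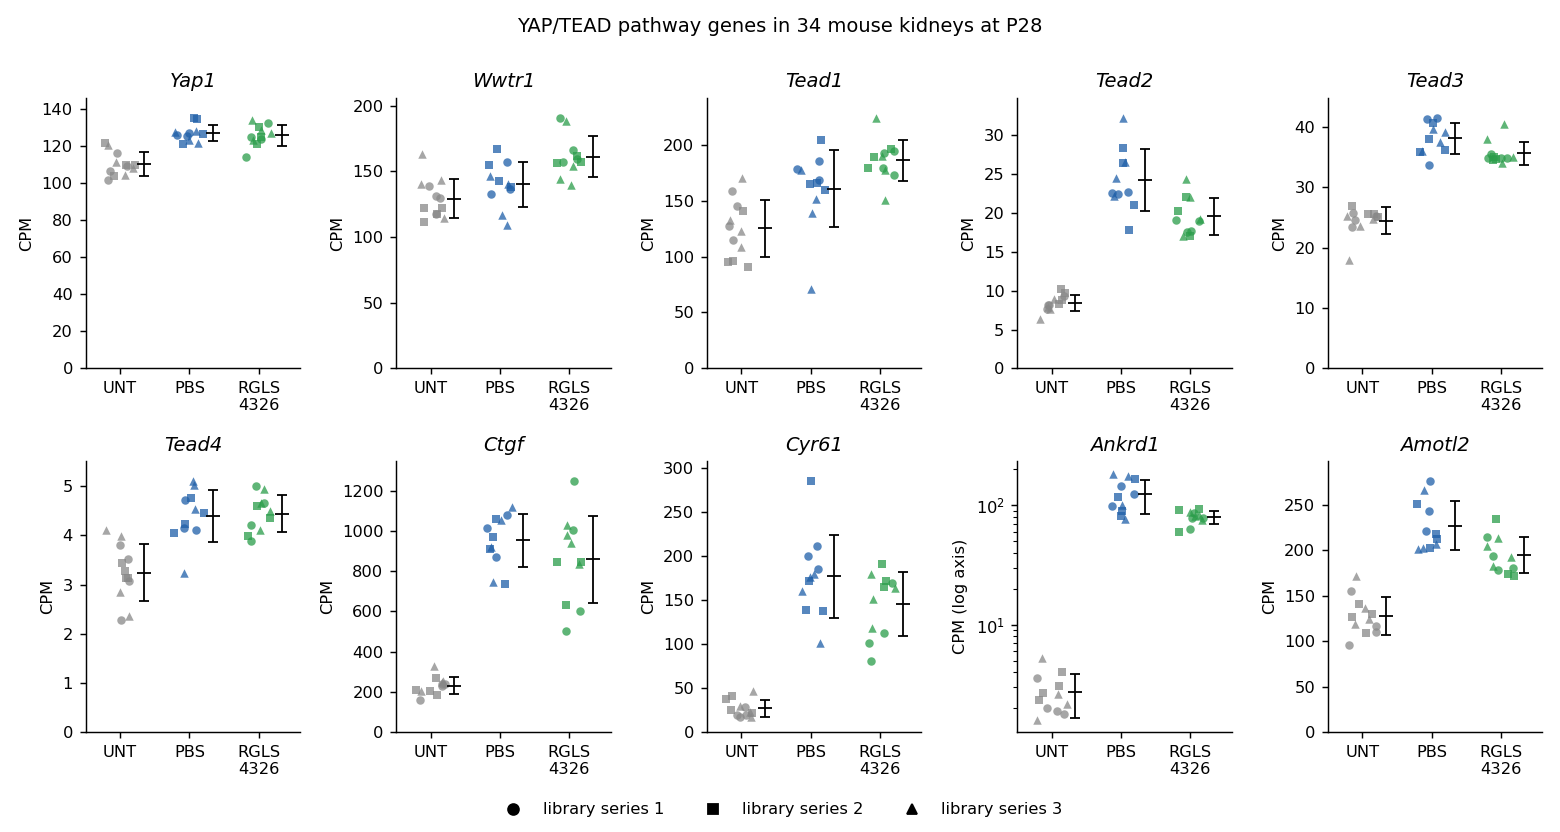
CPM of the 10 genes in each of the 34 mice (1 point per mouse, shape by library series; black marks are the group mean ± SD; all axes are linear from 0 except the log axis of *Ankrd1*). For *Tead2*, *Tead3* and the 4 target genes every PBS and RGLS4326 mouse lay above every UNT mouse, whereas the PBS and RGLS4326 mice overlapped for all 10 genes.

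*Ankrd1* (GRCm38 chr19:36111961-36120099, minus strand) encodes a cardiac and muscle ankyrin repeat protein that is induced by stretch and injury. It was close to silent in normal kidney. In UNT mice it ranged from 1.60 to 5.30 CPM with a median of 2.49, and in PBS mice from 76.8 to 183 with a median of 118. Every PBS kidney lay far above the highest UNT kidney, and the log2 difference was 5.47 ± 0.19 (SE, edgeR adjusted p = 5.71e-24). Genes of striated muscle, where *Ankrd1* is also used, summed to 0.340 to 1.29 CPM in UNT, 1.28 to 5.20 in PBS and 1.05 to 2.70 in RGLS4326 kidneys. Of the 3 muscle genes tested, 3 were called higher in PBS than in UNT, beside 43.1% of all genes. With RGLS4326, 1 was called lower (*Acta1*, log2 -1.04, edgeR adjusted p = 0.0201), beside 18.5% of all genes. The part of the muscle genes in the *Ankrd1* difference was not tested.

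*Cyr61* (chr3:145646976-145649981, minus strand) and *Ctgf* (chr10:24595442-24598683, plus strand) encode secreted matricellular proteins that bind integrins. *Cyr61* ranged from 16.8 to 46.7 CPM in UNT (median 23.6) and from 101 to 284 in PBS kidneys (median 175). *Ctgf* ranged from 159.9 to 327 CPM in UNT (median 235) and from 734 to 1120 in PBS kidneys (median 971). No PBS kidney reached down into the UNT range for either gene. The log2 differences were 2.70 ± 0.18 for *Cyr61* (adjusted p = 3.45e-16) and 2.04 ± 0.12 for *Ctgf* (SE, edgeR adjusted p = 2.86e-17). In the GENCODE models 665 exon bases of *Ctgf* overlap the antisense transcript *Gm15270*, and the strand setting of the counting was not given in the sources used here, so a share of its reads may belong to the other strand.

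*Amotl2* (chr9:102716672-102733418, plus strand) encodes an angiomotin-like junction protein that itself binds YAP and holds it back, so this target gene is part of a feedback. It ranged from 96.2 to 172 CPM in UNT (median 125) and from 201.1 to 275 in PBS kidneys (median 218). These ranges did not overlap, and the log2 difference was 0.83 ± 0.08 (SE, edgeR adjusted p = 5.88e-12). The groups were also separate for *Tead2* and *Tead3*. In all, 6 of the 10 genes had a PBS range wholly above the UNT range, beside 22.7% of all genes tested.

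Among the TEAD genes, *Tead2* (chr7:45215753-45233644, plus strand), which is prominent in embryonic tissue, differed most. It ranged from 6.38 to 10.2 CPM in UNT (median 8.23) and from 17.8 to 32.2 in PBS kidneys (median 22.7), a log2 difference of 1.52 ± 0.08 (SE, edgeR adjusted p = 2.88e-18). *Tead3* (chr17:28331671-28350817, minus strand) ranged from 17.9 to 27.0 CPM in UNT and from 33.6 to 41.5 in PBS kidneys, with medians of 25.1 and 38.0. Its log2 difference was 0.64 ± 0.05 (SE, edgeR adjusted p = 5.65e-14). For both genes every PBS kidney lay above every UNT kidney. Opposite to *Tead2*, 13 exon bases belong to *Cd37*.

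*Tead4* (chr6:128224288-128300823, minus strand) was the least expressed of the 10 per kb of exon in PBS kidneys. It ranged from 2.27 to 4.10 CPM in UNT (median 3.21) and from 3.24 to 5.10 in PBS kidneys (median 4.45), which is 66 to 143 and 105 to 262 reads. The groups overlapped, and 9 of 11 PBS mice lay above the highest UNT mouse. The log2 difference was 0.45 ± 0.09 (SE, edgeR adjusted p = 2.5e-05), and it missed the threshold in library series 1 alone (adjusted p = 0.0549) and series 3 alone (adjusted p = 0.0893).

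*Tead1* (chr7:112679318-112906807, plus strand) ranged from 90.8 to 171 CPM in UNT (median 125) and from 71.3 to 205 in PBS kidneys (median 166). The lowest value of both groups belonged to PBS replicate 9, the library that stood apart, and the next lowest PBS kidney was at 139 CPM. The log2 difference was 0.36 ± 0.11 (SE, edgeR adjusted p = 0.00449), and 0.41 without PBS replicate 9. It differed between the library series, at 0.37, 0.72 and 0.01 in series 1, 2 and 3, and in a fit of series 3 alone it was not called (edgeR adjusted p = 0.970). Whether the disease difference itself varied between the series was not tested.

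The coactivators differed least. *Yap1* (chr9:7931999-8004596, minus strand) ranged from 101.7 to 122 CPM in UNT (median 109.5) and from 121 to 135 in PBS kidneys (median 127), and 9 of 11 PBS mice lay above every UNT mouse. The spread was narrow, with an SD of 6.44 CPM in UNT and 4.54 CPM in PBS, so that a log2 difference of only 0.20 ± 0.04 (SE) had an edgeR adjusted p of 4.71e-06. It was not called in series 3 alone (0.17, edgeR adjusted p = 0.122). *Yap1* shares 116 exon bases with *Gm20416* on the opposite strand. *Wwtr1* (chr3:57455649-57575910, minus strand) ranged from 111 to 163 CPM in UNT (median 126) and from 109 to 167 in PBS kidneys (median 141). These ranges coincided, and the log2 difference of 0.12 ± 0.07 (SE, edgeR adjusted p = 0.113) was the one of the 10 that was not called. It was called without PBS replicates 2 and 11 (0.15, adjusted p = 0.0457) and in series 2 alone (0.32, adjusted p = 0.00148), and it was negative in series 3 alone (-0.13, edgeR adjusted p = 0.432).

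**Figure D2:**
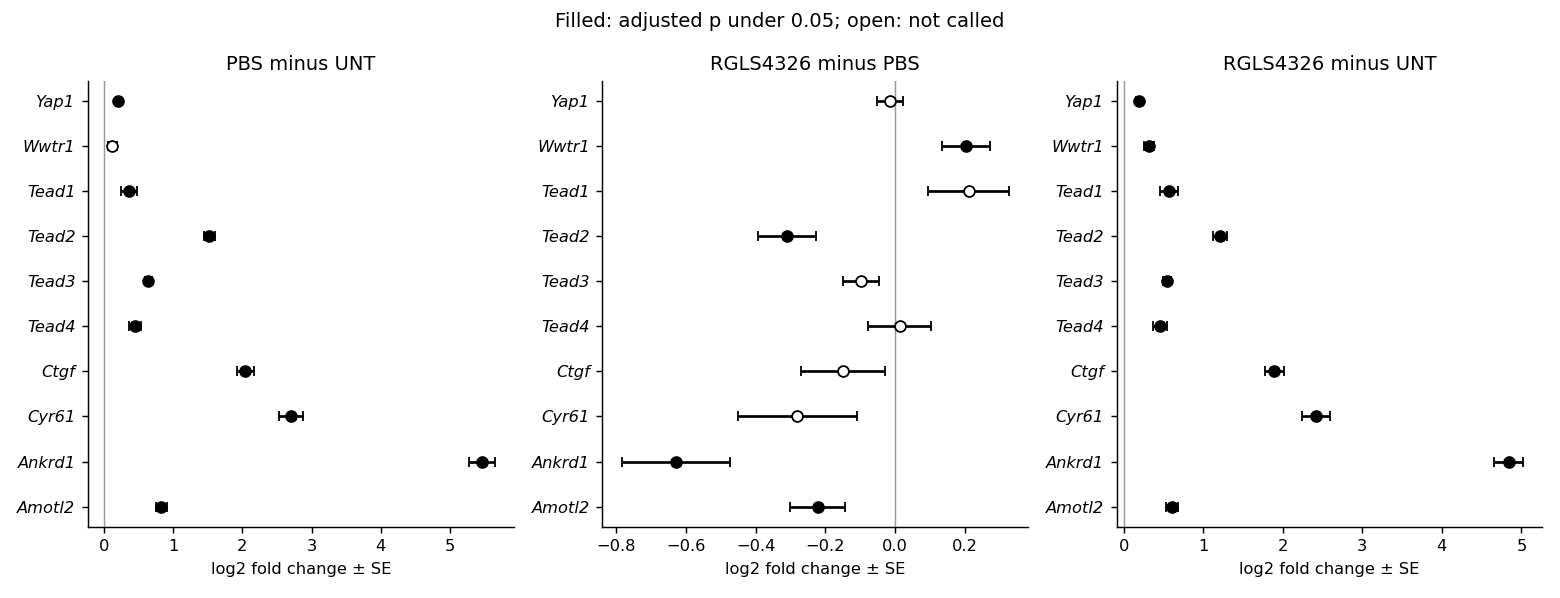
log2 fold change ± SE of the 10 genes for PBS minus UNT, RGLS4326 minus PBS and RGLS4326 minus UNT (x axes differ in scale; filled points have an adjusted p under 0.05). *Ankrd1* stands at 5.47, -0.63 and 4.84, and *Yap1* at 0.20, -0.01 and 0.19.

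The RGLS4326 comparison shares its PBS mice with the disease comparison, so a high PBS value raises one difference and lowers the other, and the values are set side by side without a test of their relation. With RGLS4326, 3 genes were called lower than in PBS (*Ankrd1*, *Tead2* and *Amotl2*), 1 was called higher (*Wwtr1*) and 6 were not called. Over all genes, 18.5% were called lower, 15.3% higher and 33.8% in either direction, so 4 of 10 is near the background. The 4 called differences were small, between 1.15-fold and 1.55-fold, and the groups overlapped for all 10 genes. Only 0.0639% of all genes tested had groups that did not overlap.

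*Ankrd1* had the largest treatment difference of the 10. In RGLS4326 kidneys it ranged from 59.4 to 92.9 CPM with a median of 81.6, against 76.8 to 183 with a median of 118 in PBS kidneys. The RGLS4326 mice lay in a narrow band (SD 10.5 CPM, against 38.4 CPM in PBS), and 11 of 11 were below the PBS mean of 123 CPM. The log2 difference was -0.63 ± 0.16 (SE, edgeR adjusted p = 0.00532), and it was negative in library series 1 (-0.67), 2 (-0.49) and 3 (-0.71). Even so, every RGLS4326 kidney held at least 59.4 CPM, against at most 5.30 CPM in UNT.

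*Tead2* ranged from 16.97 to 24.4 CPM in RGLS4326 kidneys (median 19.1), and 10 of 11 were below the PBS mean of 24.2 CPM. Its log2 difference was -0.31 ± 0.08 (SE, edgeR adjusted p = 0.0083), with -0.30, -0.25 and -0.35 in the 3 library series. *Amotl2* ranged from 172 to 234 CPM (median 193), and 7 of 11 RGLS4326 mice were below the lowest PBS mouse. Its log2 difference was -0.22 ± 0.08 (SE, edgeR adjusted p = 0.0313), with -0.36, -0.19 and -0.14 in the series. The *Amotl2* call ended without PBS replicates 2 and 11, the libraries with adrenal cortex genes (-0.16, edgeR adjusted p = 0.138), whereas *Ankrd1* (-0.52, adjusted p = 0.0287) and *Tead2* (-0.30, adjusted p = 0.0263) were still called.

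*Wwtr1* moved the other way. It ranged from 139.9 to 191 CPM in RGLS4326 kidneys (median 157) and 10 of 11 mice were above the PBS mean of 140.05 CPM, with a log2 difference of 0.20 ± 0.07 (SE, edgeR adjusted p = 0.0247). Without PBS replicates 2 and 11 it was 0.17 (edgeR adjusted p = 0.0879). *Tead1*, the other gene with an 8-base miR-17 seed match, ranged from 151 to 224 CPM (median 189), and its log2 difference of 0.21 ± 0.12 (SE) was not called (edgeR adjusted p = 0.149). *Yap1*, with the 7-base match, ranged from 114 to 134 CPM (median 125), and its log2 difference was -0.01 ± 0.04 (SE, edgeR adjusted p = 0.798; 95% interval of the log2 difference from -0.09 to 0.06).

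The secreted targets differed less from PBS than their own spread. *Ctgf* ranged from 500.01 to 1245 CPM in RGLS4326 kidneys (median 847), which took in the lowest and the highest value of both *Pkd2*-KO groups, and the log2 difference was -0.15 ± 0.12 (SE, edgeR adjusted p = 0.339; 95% interval of the log2 difference from -0.39 to 0.09). *Cyr61* ranged from 80.4 to 190.5 CPM (median 163), with a log2 difference of -0.28 ± 0.17 (SE, edgeR adjusted p = 0.195; 95% interval of the log2 difference from -0.62 to 0.06). In *Cyr61* the difference lay in library series 1, where it was -0.78, against -0.06 and -0.01 in series 2 and 3. A test of whether the treatment difference varied between the series gave p = 0.0714 for *Cyr61* before adjustment and an edgeR adjusted p of 0.865. In that test 0 of 15233 genes were called, and 796 (5.23%) had an unadjusted p under 0.05.

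*Tead3* ranged from 34.02 to 40.5 CPM (median 34.8), and 10 of 11 RGLS4326 mice were below the PBS mean of 38.1 CPM. The log2 difference of -0.10 ± 0.05 (SE) was not called (edgeR adjusted p = 0.131). *Tead4* ranged from 3.89 to 5.004 CPM (median 4.50), with a log2 difference of 0.01 ± 0.09 (SE, edgeR adjusted p = 0.916).

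**Figure D3:**
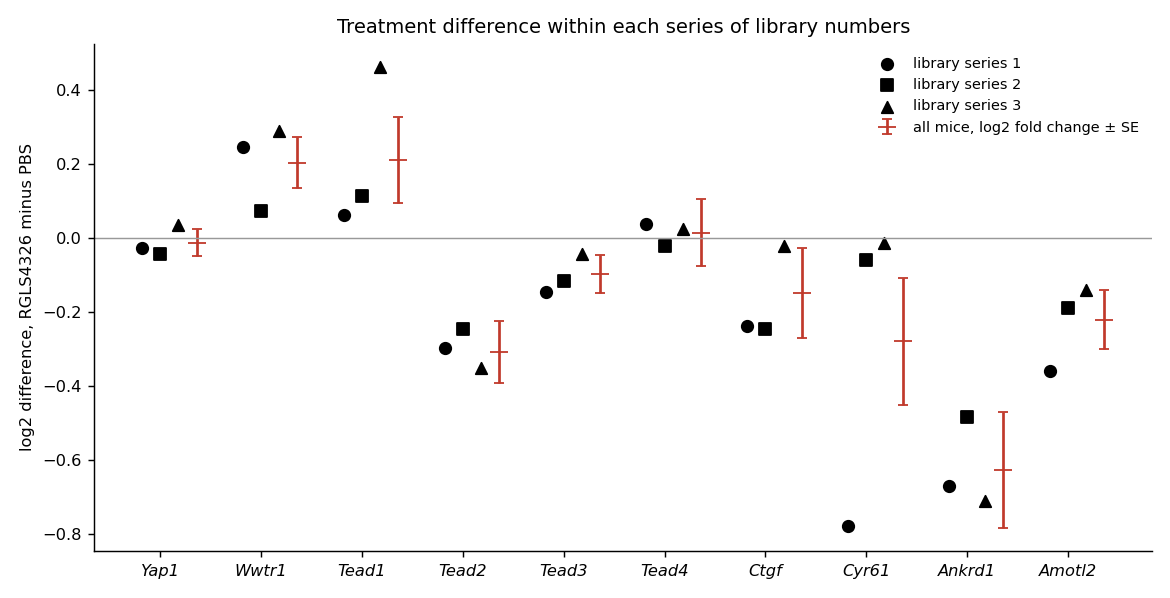
log2 difference between the mean CPM of RGLS4326 and PBS mice within library series 1, 2 and 3 (3 or 4 mice of each group; black symbols), beside the fitted log2 fold change ± SE over all mice (red). The sign was the same in all 3 series for 8 of the 10 genes, the exceptions being *Yap1* and *Tead4*, and *Cyr61* ranged from -0.78 to -0.01.

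The share of reads that fell in no gene differed between the *Pkd2*-KO groups. It was 5.18% to 8.995% in PBS (median 6.62%), 4.94% to 12.0% in RGLS4326 (median 8.38%) and 9.84% to 11.3% in UNT libraries (median 10.9%). With this share as a covariate the fitted treatment differences stayed at -0.56 for *Ankrd1*, -0.32 for *Tead2*, -0.19 for *Amotl2* and 0.19 for *Wwtr1*. None of them was then called (edgeR adjusted p from 0.0967 for *Tead2* to 0.234 for *Amotl2*), when 89 of all 15644 genes were called (0.569%) in place of 5280.

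Against UNT, all 10 genes were called higher in RGLS4326 kidneys, beside 40.8% of all genes called higher and 77.7% called in either direction. The same 6 genes as in PBS mice, *Tead2*, *Tead3* and the 4 targets, had ranges wholly above UNT, beside 20.7% of all genes. The fold was 28.6 for *Ankrd1*, 5.36 for *Cyr61*, 3.71 for *Ctgf*, 2.32 for *Tead2* and 1.52 for *Amotl2*. *Wwtr1*, which was not called in PBS, was 1.25-fold higher than UNT (log2 0.32 ± 0.07 SE, edgeR adjusted p = 7e-05), and *Tead1* was 1.48-fold higher (log2 0.57 ± 0.11 SE, edgeR adjusted p = 2.95e-05). In series 3 alone neither was called (*Wwtr1* 0.16, edgeR adjusted p = 0.375, and *Tead1* 0.47, adjusted p = 0.0962), nor were *Yap1* (0.20, adjusted p = 0.0747) and *Tead4* (0.46, edgeR adjusted p = 0.0868), and *Yap1* was not called in series 2 alone (0.16, edgeR adjusted p = 0.0727).

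Levels of different genes were compared per kb of merged exon, as CPM per kb. In UNT kidneys *Ctgf* stood highest at 80.9 ± 15.2 CPM per kb (SD, n = 12), followed by *Wwtr1* at 27.0 ± 3.1, *Amotl2* at 20.3 ± 3.3, *Cyr61* at 13.4 ± 4.9, *Yap1* at 11.9 ± 0.70 and *Tead1* at 9.23 ± 1.89. *Cyr61* and *Yap1* lay within their spread of each other, as did *Ankrd1* (0.954 ± 0.377) and *Tead4* (0.902 ± 0.160) at the low end. In PBS kidneys *Ankrd1* stood at 42.6 ± 13.3 CPM per kb (SD, n = 11), above *Yap1* at 13.7 ± 0.5. It lay within its spread of *Amotl2* at 36.1 ± 4.3 and of *Wwtr1* at 29.3 ± 3.5. *Ctgf* stayed highest at 333 ± 46 and *Cyr61* came second at 87.5 ± 23.4. Part of the order depends on the length used. Per kb of the longest transcript, *Amotl2* (28.9 ± 4.7) and *Wwtr1* (27.5 ± 3.2) lay within their spread of each other in UNT kidneys, and *Yap1* (20.9 ± 1.2) stood above *Cyr61* (13.4 ± 4.9).

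*Wwtr1* exceeded *Yap1* per kb of exon in all 3 groups, and *Yap1* made up 30.7% ± 2.4 of their sum in UNT (SD, n = 12), 32.1% ± 2.7 in PBS and 28.9% ± 2.6 in RGLS4326 kidneys (n = 11 each). Among the TEAD genes *Tead1* held the largest share, at 58.9% ± 5.9 in UNT, 49.2% ± 7.6 in PBS and 56.2% ± 3.0 in RGLS4326 kidneys. The share of *Tead2* was 11.5% ± 2.2, 21.6% ± 5.5 and 16.8% ± 1.9 in the same order. *Tead3* held 23.7% ± 3.5, 24.0% ± 2.5 and 21.8% ± 1.3, and *Tead4* 5.83% ± 1.01, 5.15% ± 0.48 and 5.10% ± 0.52. From UNT to PBS the mean share of *Tead2* was higher and that of *Tead1* lower, while the mean shares of *Tead3* and *Tead4* differed by less than 1 SD of the UNT mice.

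**Figure D4:**
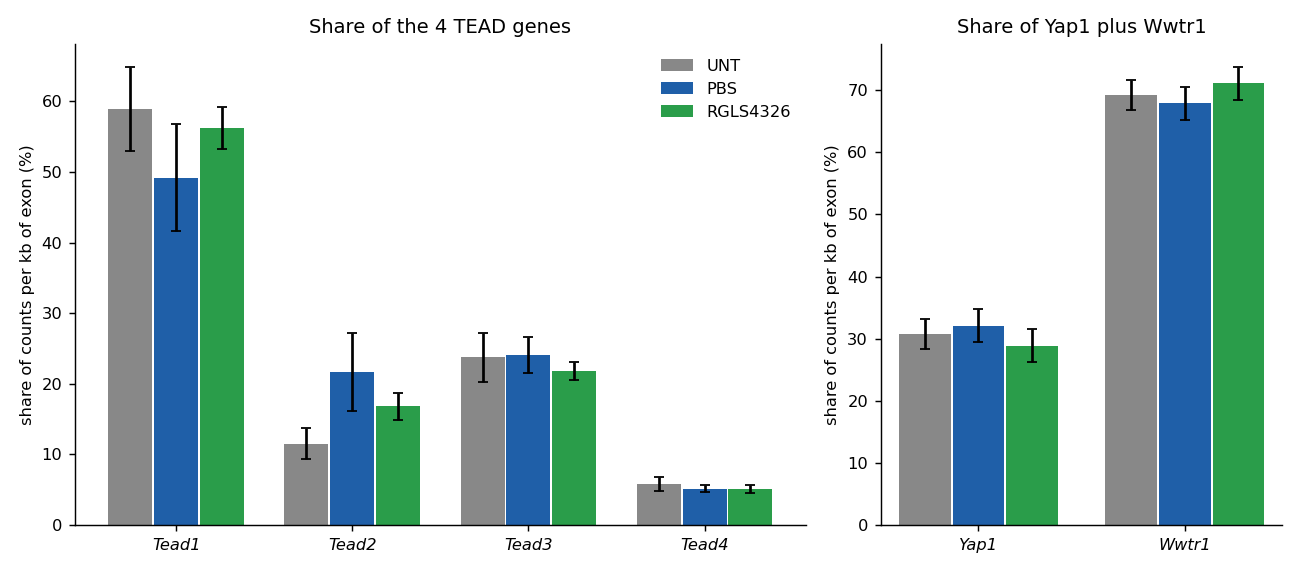
Mean share ± SD of each gene among the 4 TEAD genes (left) and among *Yap1* and *Wwtr1* (right), from counts per kb of merged exon (n = 12 UNT, 11 PBS and 11 RGLS4326 mice). The *Tead2* share was 11.5% in UNT and 21.6% in PBS mice, and that of *Tead1* 58.9% and 49.2%.

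Upstream and around these genes, the pathway lists covered 49 other genes, of which 47 could be tested. Between PBS and UNT 34 were called higher and 4 lower, and between RGLS4326 and PBS 5 were called higher and 6 lower. The background shares are those given above: 43.1% higher for the first comparison and 33.8% called for the second.

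Of 15 Hippo core kinases and scaffolds, 10 were called higher and 1 lower in PBS than in UNT kidneys, with a median log2 fold change of 0.25. The kinases *Map4k4* (log2 1.09 ± 0.06 SE, edgeR adjusted p = 4.99e-19), *Taok3* (1.14 ± 0.09, edgeR adjusted p = 3.3e-14) and *Stk4*, which encodes MST1 (0.69 ± 0.06, edgeR adjusted p = 4.27e-12), were higher. *Taok2* was the one called lower, at 93.9 ± 5.6 CPM in PBS against 129 ± 17 in UNT (SD, n = 11 and 12), a log2 difference of -0.46. With RGLS4326, *Taok2* (0.27 ± 0.07 SE, edgeR adjusted p = 0.00626) and *Taok1* (0.35 ± 0.11, edgeR adjusted p = 0.0203) were called higher than in PBS and the other 13 genes of this list were not called.

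Of 14 junction, polarity and cadherin regulators, 10 were called higher and 1 lower in PBS kidneys, with a median log2 fold change of 0.45. The atypical cadherin *Fat1* was at 337 ± 79 CPM in PBS against 104 ± 18 in UNT (log2 1.70 ± 0.12 SE, edgeR adjusted p = 1.03e-15). The LIM protein *Ajuba*, which binds LATS kinases, had a log2 difference of 1.78 ± 0.12 and the angiomotin *Amotl1* one of 1.09 ± 0.08. *Slmap*, a scaffold of the phosphatase complex that dephosphorylates MST kinases, was called lower (-0.42 ± 0.07). With RGLS4326, 3 genes of the list were called higher (*Fat4*, 0.56, *Dchs1*, 0.35, and *Slmap*, 0.20) and 5 lower, among them *Crb3* (-0.38) and *Ajuba* (-0.42). *Fat4* and *Dchs1*, a receptor and ligand pair of cadherins, were at 28.9 ± 2.8 and 37.9 ± 1.9 CPM in RGLS4326 kidneys, against 19.5 ± 5.6 and 29.8 ± 6.8 in PBS and 13.5 ± 2.7 and 17.9 ± 4.3 in UNT kidneys (SD, n = 11, 11 and 12).

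The Vestigial-like proteins bind TEAD factors in competition with YAP and TAZ. *Vgll3* was at 2.12 ± 0.48 CPM in UNT and 12.1 ± 2.7 in PBS kidneys (log2 2.50 ± 0.13 SE, edgeR adjusted p = 3.02e-19), and *Vgll4* at 13.5 ± 3.4 and 27.7 ± 4.2 (1.03 ± 0.11, edgeR adjusted p = 4.51e-11). *Vgll1* was barely detected, at 0.0285 ± 0.0405 CPM in UNT, 0.538 ± 0.225 in PBS and 0.295 ± 0.131 in RGLS4326 kidneys, with at most 47 reads in a library. It was called higher in PBS than in UNT and lower in RGLS4326 than in PBS. *Vgll2* had 0 reads in all 34 libraries.

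Of 18 other YAP/TEAD target genes, 17 were tested (*Foxf2* had at most 12 reads in a library). In PBS kidneys 13 were called higher and 2 lower than in UNT, with a median log2 fold change of 0.60. *Ccdc80*, a matrix protein (3.08 ± 0.12 SE), *Fjx1*, a Golgi kinase of the Fat and Dachsous system (2.90 ± 0.10), and *F3*, tissue factor (2.35 ± 0.07, edgeR adjusted p = 1.09e-25), had the smallest p. *Igfbp3* (-0.62 ± 0.10) and *Dock5* (-0.23 ± 0.08) were called lower. Between RGLS4326 and PBS, 0 of the 17 were called by edgeR, DESeq2 or limma-voom, and 0 had an unadjusted edgeR p under 0.05. In series 2 alone 1 was called. Their median log2 fold change was -0.02. Over all genes tested 33.8% were called. Whether these 17 differed from *Ankrd1* and *Amotl2* was not tested.

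**Figure D5:**
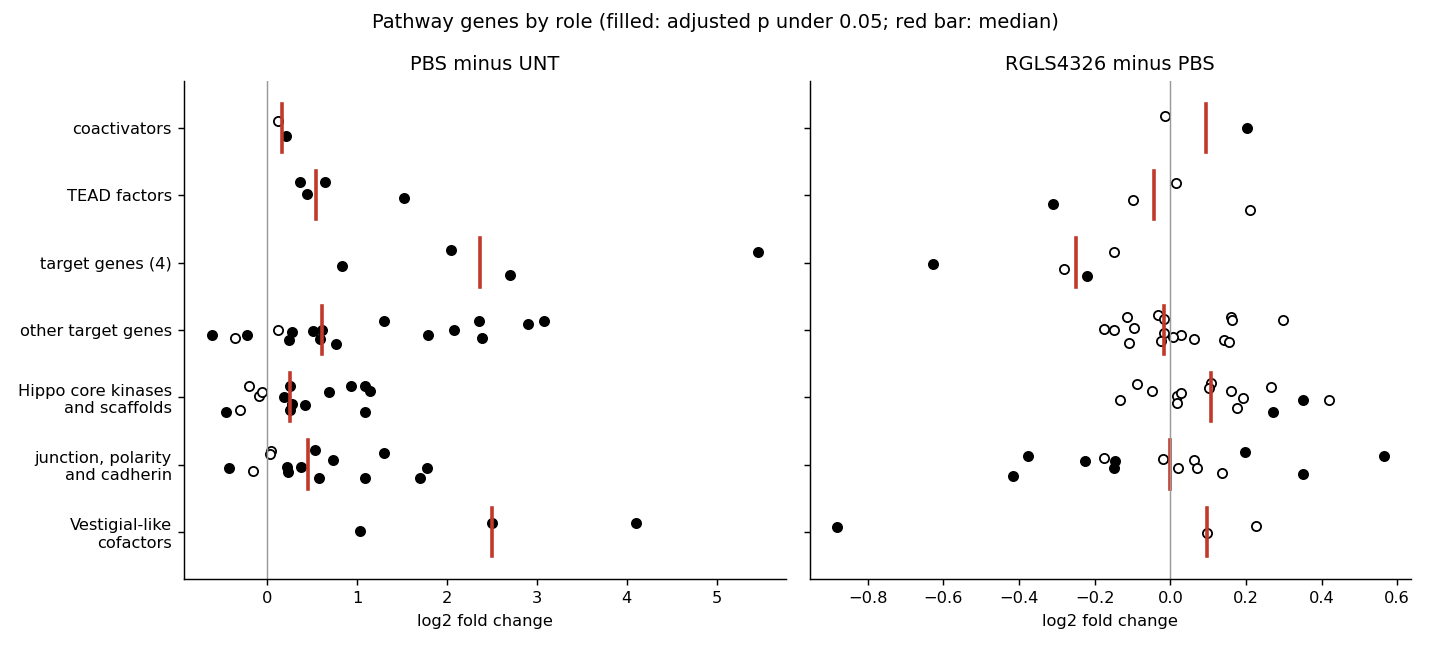
log2 fold change of each tested gene by its role in the pathway, for PBS minus UNT (left) and RGLS4326 minus PBS (right, finer scale); filled points have an adjusted p under 0.05 and red bars are list medians. The 4 target genes had a median of 2.37 on the left and -0.25 on the right, and the 17 other targets a median of 0.60 and -0.02.

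Several of these genes are expressed more in some kidney cells than in others, and in whole kidney a change in the number of cells of a type and a change of RNA per cell cannot be told apart. The defining genes of kidney tubules were present in all libraries. The counts of marker genes called here and in the next paragraph stand beside shares of all genes tested. These were 82.1% called between PBS and UNT and 33.8% between RGLS4326 and PBS. Genes of fibroblasts and myofibroblasts summed to 359.9 to 692 CPM in UNT, 1453 to 2704 in PBS and 1732 to 2522 in RGLS4326 kidneys, with 6 of 6 called higher in PBS than in UNT and 1 of 6 higher in RGLS4326 than in PBS. Genes of macrophages summed to 79.8 to 147, 491 to 1336 and 446 to 876 CPM, with 5 of 5 called higher in PBS and 3 of 5 lower with RGLS4326. Genes of T cells summed to 3.14 to 5.76, 9.66 to 27.8 and 6.16 to 14.3 CPM, with 3 of 4 higher in PBS and 3 of 4 lower with RGLS4326.

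Among the epithelial genes, those of the proximal tubule summed to 8592 to 12311 CPM in UNT, 724 to 2606 in PBS and 1752 to 2925 in RGLS4326 kidneys, with 6 of 6 lower in PBS and 5 of 6 higher with RGLS4326. Those of the thick ascending limb summed to 6145 to 9799, 2409 to 4630 and 3588 to 5139 CPM, with 1 of 4 higher and 3 lower in PBS, and 2 of 4 higher and 1 lower with RGLS4326. Those of the collecting duct, where *Pkd2* was deleted, summed to 529 to 874, 842 to 2270 and 454 to 1989 CPM, with 5 of 5 higher in PBS and 3 of 5 lower with RGLS4326. Podocyte genes summed to 586 to 728, 354 to 459 and 420 to 499 CPM, with 1 of 5 higher and 4 lower in PBS and 4 of 5 higher with RGLS4326. Endothelial genes summed to 426 to 533, 309 to 475 and 418 to 519 CPM, with 2 of 5 higher and 3 lower in PBS and 4 of 5 higher with RGLS4326. Proliferation genes summed to 36.2 to 189, 125 to 207 and 143 to 269 CPM, with 5 of 5 higher in PBS, and with RGLS4326 0 of 5 were called by edgeR and 2 had an unadjusted p under 0.05. The part of these cell types in the differences of the 10 genes was not tested.

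Across the mice of one group the correlations between the 4 target genes were mixed. Over the 18 pairs of targets and groups, Pearson's r ran from -0.59 to 0.81 and was positive in 14. A single pair was significant, *Cyr61* and *Ankrd1* in the 12 UNT mice (r = 0.81, adjusted permutation p = 0.023; Spearman's rho = 0.83, adjusted permutation p = 0.029; r = 0.56 without the 2 mice farthest from the median of *Cyr61*). With values centred on the library series the same pair had r = 0.79 (adjusted permutation p = 0.037), but rho was 0.56 (adjusted permutation p = 0.19). In PBS mice the pair had r = 0.46 and in RGLS4326 mice r = 0.07, and whether these differ was not tested.

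The genes most like each target were sought among all tested genes by Pearson's r of log2(CPM + 1) over the 34 mice after subtracting each group's mean. This is a description, since all the values of a mouse share its library and depth. For *Ankrd1* these were *Tfap2a* (r = 0.82), *Irf9* (0.80) and *Dusp10* (0.79). For *Ctgf* they were *Tsc22d3* (0.79) and *Dusp1* (0.76), both known glucocorticoid-induced genes, and the clock-linked *Ccrn4l* (0.67). For *Cyr61* they were *Nuak2* (0.72), which also stood on the list of other targets, *Msl1* (0.72) and *Mcl1* (0.72). For *Amotl2* they were *Zfp746* (0.74), *Nt5dc3* (0.72) and *Sec14l1* (0.71), and for *Yap1* *Utp23* (0.64), *Meox2* (0.60) and *Pvr* (0.60). No gene was among the closest 3 of more than 1 of these 5 members.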

How the data were processed

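Kidney RNA of 34 mice was measured by stranded, paired-end mRNA sequencing. Per the labels and the study's methods, the authors trimmed reads, mapped them with STAR to GRCm38 and deposited raw HTSeq (0.6.1) counts per gene symbol, 1 table per mouse, neither normalized nor pooled. The annotation and the strand setting are not given in the sources used here. Counter totals (reads in no gene, ambiguous or not unique) were kept out of library sizes.

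All 34 libraries entered 1 fit of 3 groups in edgeR 4.0.16 (R 4.3.3) with TMM scaling, filterByExpr (15644 genes kept) and the quasi-likelihood test, with Benjamini-Hochberg adjustment over all genes tested. The SE of a log2 fold change was taken from its F statistic. No litter or cage was stated, so each mouse was treated as independent and p-values measure the spread between these animals. Litters or cages that mice may have shared could not be taken into account. DESeq2 1.42.0, limma 3.58.1, RLE factors, no filter, covariates (library series, sex, share of reads in no gene), a replicate block, single series and the 2 groups alone were alternatives. Sex was inferred from the counts of *Ddx3y* and not taken from the labels. Fits without PBS replicate 9, and without PBS replicates 2 and 11, were added after seeing the data. On simulated RGLS4326 and PBS counts (15572 genes) the fit recovered 97 of 100 genes changed by 1 on the log2 scale and 67 of 99 changed by 0.5, with 6 false calls. The simulation changed few genes and drew the others around a mean common to all groups. It held no difference between library series or in the share of reads in no gene. The false calls therefore do not measure the error rate in the real data. Library series were read from sample numbers in the file names. Correlations used 100000 permutations, two-sided, and Python 3.11.15 with scipy 1.17.1, adjusted over 18 pairs. Lengths, overlaps and 3′ untranslated regions came from GENCODE M21.

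The 10 genes and the pathway lists were chosen with earlier results of these data known. Named beyond the 10 were, from each list, up to 3 called genes with the smallest p in each direction of a comparison, and the 3 genes most correlated with *Yap1* and each target. A gene that this rule also names is not reported here.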

Additional observations from a re-analysis of the deposited data

How the results depend on the processing

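Over 14 alternatives to each comparison, the PBS against UNT differences of the 10 genes kept their direction and side of the threshold in 133 of 140 cases, those of RGLS4326 against UNT in 135 of 140 and those of RGLS4326 against PBS in 117 of 140. For RGLS4326 against PBS, the count of members called was 4 in the report and under DESeq2, limma-voom, RLE factors, no filter, sex or library series as a covariate, the 2 groups alone and without PBS replicate 9. It was 0 when each library's share of reads outside genes entered as a covariate, 0 in series 1, 0 in series 2 and 0 in series 3 alone (3 or 4 mice a group), and 2 without PBS replicates 2 and 11. The count over the other pathway genes, 11 in the report, was 0 with that covariate, 0, 9 and 0 in series 1, 2 and 3, and 4 without PBS replicates 2 and 11. Over all genes, 5280 calls became 89 with the covariate, 54, 4065 and 0 in series 1, 2 and 3, and 2836 without PBS replicates 2 and 11. The unadjusted p was under 0.05 for 3199 genes with the covariate and for 2826 in series 3. For RGLS4326 against UNT, 6 of the 10 members were called in series 3 alone, beside 55.8% of all genes tested.

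The sign reversed for *Wwtr1* between PBS and UNT in series 3 (-0.13) and for *Dock5* in series 2 (0.0526). Between RGLS4326 and PBS it reversed for *Yap1* without the filter (0.0012) and in series 3 (0.0349), and for *Tead4* with the covariate (-0.0191), in series 2 (-0.0056) and without PBS replicate 9 (-0.0101). The cause was not tested.

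With the length of the longest transcript in place of merged exons, the *Yap1* share was 43.3% in UNT, 44.8% in PBS and 41.1% in RGLS4326 kidneys, and that of *Wwtr1* 56.7%, 55.2% and 58.9%. *Tead3* then held 30.9%, 31.1% and 28.6%, *Tead4* 4.56%, 4.004% and 4.01%, and *Tead1* 51.5% in RGLS4326 kidneys. The orders of *Wwtr1* over *Yap1* and of *Tead1* over the other TEAD genes held for the group means with both lengths.

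Replicate numbers did not pair the mice: same-numbered mice of 2 groups had correlations of their deviations from -0.42 to 0.45, over 0.1 in 2, 3 and 5 of 11 pairs, and 1, 2 and 2 of 11 mice correlated best with their own number. With the replicate block, 9, 4 and 10 members were called for PBS against UNT, RGLS4326 against PBS and RGLS4326 against UNT, and 38, 10 and 38 of the other pathway genes. Over all genes tested, 81.7%, 32.6% and 77.7% were called with the block in the same order. The block changed no call of the 10 members.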
